A study of Mus musculus with 8 samples.

Results

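The early response of the mouse mammary gland to 17β-estradiol (E2), the main circulating estrogen, was described from 2 arrays, 1 taken 3 h and 1 taken 6 h after E2, set against 2 vehicle arrays. These 4 arrays were chosen by their titles from the 8 arrays of a time course. All groups, vehicle included, were virgin mice 12 to 13 weeks old that had been gonadectomized, an operation that takes away ovarian estrogen. E2 was given under the skin, controls received vehicle solution, and inguinal mammary gland tissue was profiled on Affymetrix arrays with 1 colour. No strain is named in the labels, and their dose carries conflicting units, so neither is given.

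The times come from the titles, while the description of every sample reads 24 h. Both vehicle arrays were labelled 24 h, so at 3 h and 6 h the effects of E2, of the injection and of the time of day cannot be told apart. The labels mention collection from every mouse in a group but do not state if 1 array holds RNA of 1 mouse or of a pool. The p-values below therefore measure the spread between arrays, which may be technical. Of 18193 genes on the arrays, 10916 lay above the level limit (an intensity of 211) and were tested.

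As background, E2 enters the cell and binds the estrogen receptor ERα, encoded by Esr1, which in the mammary gland is found in a subset of luminal epithelial cells and in stromal cells. The receptor binds DNA at estrogen response elements, often at sites that the pioneer factor Foxa1 has opened and with Gata3 as a partner, and it also acts through AP-1 factors bound elsewhere. Progesterone receptor is a classical target, and paracrine factors released by receptor-positive cells drive growth of neighbouring cells.

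The vehicle arrays set the scale of the background. Over the 10916 genes, the SD of the log2 difference between them was 0.13. Of them, 18 genes differed by 1.5-fold and 0 genes by 2-fold. The 3 h and 6 h arrays differed from each other by an SD of 0.145, and 76 genes differed by 1.5-fold, 10 of them by 2-fold. Epithelial and fat markers were present on all 4 arrays, with Epcam between 1615 and 1787 and Adipoq between 14255 and 15693. Marker lists were not all level. The summed intensity of 24 luminal markers was 17251 and 18188 in vehicle, 17111 at 3 h and 15383 at 6 h. That of 16 B lymphocyte markers was 21674 and 26555 in vehicle, 26066 at 3 h and 21996 at 6 h. Skeletal muscle markers differed more. The summed intensity of 30 muscle genes was 36538 and 32839 on the vehicle arrays, 43045 at 3 h and 57788 at 6 h. The tissue is a mixture, so fewer cells of a type and less RNA per cell cannot be told apart in any value below.

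At 3 h and at 6 h together, a small set of genes left the vehicle range by a wide margin. There were 28 genes (0.257% of those tested) that lay at least 1.5-fold outside the range of the vehicle arrays on both E2 arrays, 20 above (0.183%) and 8 below (0.0733%). By the mean of 3 h and 6 h, the highest were Krt4 (7.80-fold) and Pgr, the gene of the progesterone receptor (4.05-fold), and the lowest were Tlcd4 (3.54-fold lower), Foxa1 (3.39-fold) and Cited1 (2.77-fold). By any amount, 2314 genes (21.2%) lay above both vehicle arrays on both E2 arrays and 1668 (15.3%) lay below, 36.5% in all. Among the 20 higher genes, folds over the vehicle mean ran from 1.57 to 10.6 at 3 h and from 1.57 to 5.76 at 6 h. Among the 8 lower genes, levels were 1.63- to 6.19-fold lower at 3 h and 1.63- to 4.05-fold lower at 6 h. At the edge of the class, Aqp5 was inside at 1.51-fold and Ucp1 outside at 1.47-fold on the higher side. On the lower side, Smim3 was inside at 1.59-fold and Car8 outside at 1.48-fold.

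**Figure D1:**
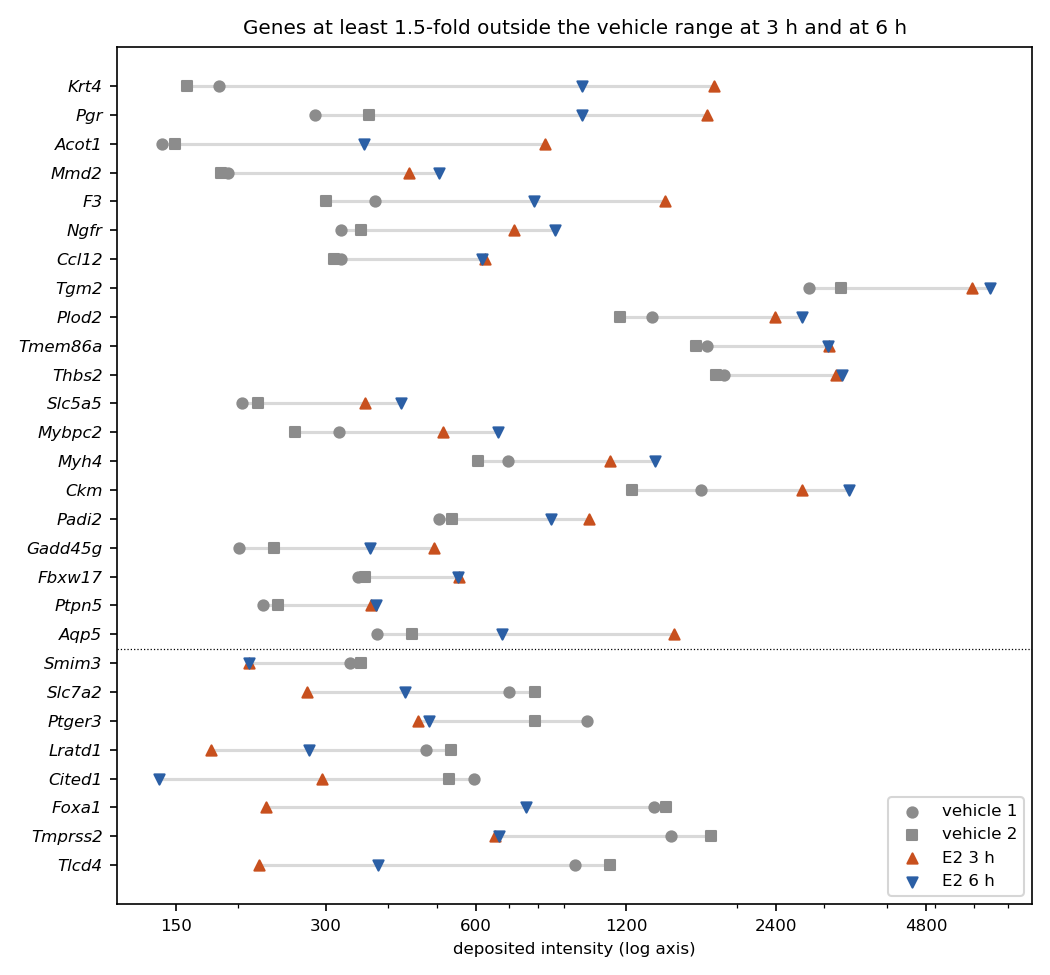
Deposited intensity (log axis) of the 28 genes at least 1.5-fold outside the vehicle range at 3 h and at 6 h, with 1 point for each of the 4 arrays and a grey line from the lowest to the highest. The 20 genes above the dotted line lie to the right of both vehicle arrays and the 8 below it lie to the left, and Foxa1, Acot1, Aqp5 and Cited1 show a wide gap between 3 h and 6 h.

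Krt4, a keratin of stratified epithelia, had intensities of 183 and 158 on the vehicle arrays, 1798 at 3 h and 979 at 6 h. The groups did not overlap, as the rule of the class requires, and the rise was 10.6-fold at 3 h and 5.76-fold at 6 h. With 2 arrays against 2, the log2 difference was 2.96 ± 0.25 (SE, limma adjusted p = 0.0123). Krt4 was back near vehicle at 12 h, at 178. Pgr, the ligand-activated receptor that carries the progesterone signal, measured 285 and 366 in vehicle, 1745 at 3 h and 979 at 6 h. It rose by 2.02 ± 0.25 on the log2 scale (limma adjusted p = 0.0494), and it was still at 795 at 12 h and 504 at 18 h.

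Acot1 hydrolyses fatty acyl-CoA in the cytosol. Its intensity was 140 and 149 in vehicle, 826 at 3 h and 358 at 6 h. F3, tissue factor, the starter of the coagulation cascade, measured 376 and 300 in vehicle, 1435 at 3 h and 786 at 6 h. Both were high on both E2 arrays with the higher value at 3 h. Neither passed the test of 2 against 2 (limma adjusted p = 0.116 for Acot1 and 0.088 for F3), in which the gap between 3 h and 6 h counts as spread. In the fit with 1 array per time, Acot1 rose at 3 h (limma adjusted p = 0.000962) and at 6 h (0.0163), and so did F3 (0.00762 and 0.0449). That fit has 1 residual degree of freedom and assumes that each single E2 array varies as the vehicle arrays do. Aqp5, a water channel of secretory epithelia, had the same shape, with 379 and 447 in vehicle, 1495 at 3 h and 677 at 6 h. It rose at 3 h (limma adjusted p = 0.007), and its 6 h value did not pass (0.0994).

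Other risers held nearly the same level at both times. Mmd2, a membrane protein of the progestin and adipoQ receptor family, measured 191 and 185 in vehicle, 441 at 3 h and 504 at 6 h (log2 difference 1.33 ± 0.09, limma adjusted p = 0.00713). Ngfr, the p75 neurotrophin receptor, measured 322 and 353 in vehicle, 715 at 3 h and 864 at 6 h (1.22 ± 0.10, adjusted p = 0.0123). Ccl12, a chemokine that attracts monocytes, was at 322 and 311 in vehicle and at 625 and 617 at 3 h and 6 h (0.97 ± 0.06, adjusted p = 0.00713). In these genes the E2 arrays stood close together and far from the vehicle pair. Genes of the extracellular matrix were among them. Tgm2, a transglutaminase that cross-links proteins, had 2798 and 3234 in vehicle, 5923 at 3 h and 6459 at 6 h (adjusted p = 0.0123). Plod2, which hydroxylates lysine for collagen cross-links, had 1353 and 1167 against 2384 and 2705 (adjusted p = 0.0194). Thbs2, a matricellular thrombospondin, had 1883 and 1819 against 3165 and 3250 (adjusted p = 0.00795).

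Tmem86a, an enzyme that cleaves lysoplasmalogen, rose from 1743 and 1654 to 3068 and 3053 (adjusted p = 0.00713). Slc5a5, the sodium iodide symporter, rose from 203 and 219 to 359 and 425 (adjusted p = 0.0374). Vehicle and E2 values did not overlap in either gene, as the rule of the class requires. Of the remaining risers, Padi2, a peptidylarginine deiminase, Fbxw17, an F-box protein, and Ptpn5, a tyrosine phosphatase, passed the test (adjusted p = 0.0374, 0.0222 and 0.0332). Gadd45g, a stress-induced regulator of growth arrest, did not (adjusted p = 0.0866), with 200 and 236 in vehicle, 495 at 3 h, 367 at 6 h and a higher value of 671 at 1 h.

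The last 3 of the 20 higher genes were muscle genes. Myh4, a fast myosin heavy chain, had 694 and 605 in vehicle, 1113 at 3 h and 1373 at 6 h (limma adjusted p = 0.0494). Ckm, muscle creatine kinase, had 1696 and 1231 against 2700 and 3364 (adjusted p = 0.0866), and Mybpc2, a myosin-binding protein, had 319 and 260 against 515 and 665 (adjusted p = 0.0677). All 3 were higher in vehicle 1 than in vehicle 2 and higher at 6 h than at 3 h, in the order of the summed muscle markers. The part of muscle content in these values was not tested.

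The 8 lower genes included Foxa1 and Cited1, which act in luminal cells. Foxa1, the forkhead pioneer factor for ERα, measured 1368 and 1444 in vehicle, 227 at 3 h and 756 at 6 h. Its level was 6.19-fold lower at 3 h and 1.86-fold lower at 6 h, and it fell at both times in the fit with 1 array per time (limma adjusted p = 0.000474 and 0.0281). With 3 h and 6 h as 1 group it did not pass (adjusted p = 0.319). In Cited1, a transcriptional cofactor of estrogen-receptor-positive luminal cells, the lower value was that at 6 h. Cited1 measured 595 and 529 in vehicle, 295 at 3 h and 139 at 6 h, with 1 array at each time. It fell 1.90-fold at 3 h (adjusted p = 0.0317) and 4.05-fold at 6 h (adjusted p = 0.00551), and it was the single gene of the 28 that lay at least 1.5-fold farther from vehicle at 6 h than at 3 h.

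Tlcd4, a TLC-domain membrane protein, measured 946 and 1116 in vehicle, 220 at 3 h and 381 at 6 h, a fall of 1.83 ± 0.23 on the log2 scale (limma adjusted p = 0.0494). Tmprss2, a membrane serine protease of luminal epithelium, measured 1479 and 1772 in vehicle, 656 at 3 h and 668 at 6 h (a fall of 1.29 ± 0.09, adjusted p = 0.00713). Ptger3, a receptor for prostaglandin E2, measured 1004 and 787 in vehicle, 460 at 3 h and 483 at 6 h (adjusted p = 0.0494). The E2 values of Tmprss2 and Ptger3 were nearly equal at both times, while Tlcd4 was lower at 3 h. Smim3 fell from 334 and 352 to 210 at both times (adjusted p = 0.0266). Lratd1 measured 477 and 535 in vehicle, 176 at 3 h and 278 at 6 h, and Slc7a2, a carrier of cationic amino acids, measured 700 and 787, then 274 and 431. These last 2 did not pass with 2 arrays against 2 (adjusted p = 0.0958 and 0.112) and fell at 3 h in the fit with 1 array per time (0.00762 for each).

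The receptor acts at DNA, so promoters are shown for the 2 rises and 2 falls farthest outside the vehicle range on both arrays. They are those of Pgr, chr9:8899583-8899882 (plus strand), of Tlcd4, chr3:121263291-121263590 (minus strand), and of Tmprss2, chr16:97611146-97611445 (minus strand). Krt4, the other rise, had no promoter in the reference. Each window runs from 250 bases before to 50 bases after the gene start, 5′ to 3′, from RefSeq on mouse assembly GRCm38.p6. Capitals mark matches, on either strand, to the estrogen response element (GGTCA, any 3 bases, TGACC), a single arm of it, GGTCA, which the full element also contains, the AP-1 site TGANTCA or the forkhead site TGTTTAC. These 3 windows held none of them.
Pgr: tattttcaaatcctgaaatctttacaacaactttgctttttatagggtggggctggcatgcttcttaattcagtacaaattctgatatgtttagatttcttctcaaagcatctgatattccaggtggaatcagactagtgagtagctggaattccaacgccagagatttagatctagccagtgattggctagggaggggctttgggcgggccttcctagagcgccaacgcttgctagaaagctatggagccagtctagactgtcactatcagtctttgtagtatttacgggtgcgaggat
Tlcd4: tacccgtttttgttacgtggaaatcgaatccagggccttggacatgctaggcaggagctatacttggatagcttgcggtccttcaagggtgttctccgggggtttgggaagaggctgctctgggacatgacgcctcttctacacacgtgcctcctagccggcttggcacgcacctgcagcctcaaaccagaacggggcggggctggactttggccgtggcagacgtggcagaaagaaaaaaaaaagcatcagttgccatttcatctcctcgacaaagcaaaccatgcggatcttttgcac
Tmprss2: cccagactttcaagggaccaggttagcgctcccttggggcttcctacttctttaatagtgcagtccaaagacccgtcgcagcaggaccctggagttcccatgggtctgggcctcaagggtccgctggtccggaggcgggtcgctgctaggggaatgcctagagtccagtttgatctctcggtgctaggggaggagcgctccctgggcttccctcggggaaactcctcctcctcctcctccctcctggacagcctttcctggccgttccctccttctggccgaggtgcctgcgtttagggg

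Over all 32851 promoters of the table, 13299 (40.5%) held a single arm, 23 (0.07%) the full element, 2565 (7.81%) an AP-1 site and 1199 (3.65%) a forkhead site. Among the 8778 genes tested that matched a promoter, 37.6% held a single arm in the first listed one. It was held by 7 of the 17 promoters matched to genes higher on both arrays and by 2 of the 6 matched to genes lower on both. A match describes letters in a short window, and its absence says nothing about binding of a factor.

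Across all genes, the limma test of 2 arrays against 2 called 27 genes (0.247%), 22 higher (0.202%) and 5 lower (0.0458%), while 859 (7.87%) had an unadjusted p below 0.05. Of the 28 genes outside the range, 18 were called. All 13 genes of the 28 whose 3 h and 6 h values lay within 1.2-fold of each other were called. Their selection favours a call, since the gap between 3 h and 6 h counts as spread in this test. From outside the class, 9 genes were called. These calls rest on both vehicle arrays: limma made 0 calls without vehicle 1 and 0 without vehicle 2, where 699 and 599 genes had an unadjusted p below 0.05. Without the 6 h array there were 64 calls, of which 15 were among the 27. The class of 28 became 65 genes when the range was set by vehicle 2 alone and 42 when it was set by vehicle 1 alone. For 15 of the 28 genes the array holds 30 further probe sets. Of these, 27 lay by any amount on the same side of vehicle on both E2 arrays and 0 on the opposite side. Only 13 of the 30 were above the level limit, 12 of them on the same side. They read the same RNA on the same arrays, so they do not replicate the change.

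The calls at single times were more numerous. At 3 h, 65 genes (0.595%) passed, 47 higher (0.431%) and 18 lower (0.165%), and at 6 h, 38 genes (0.348%) passed, 30 higher (0.275%) and 8 lower (0.0733%). Of the 28 genes, 22 were called at 3 h and 19 at 6 h. Of the 28, 17 lay farther from the vehicle mean at 3 h than at 6 h, 10 of the 20 higher and 7 of the 8 lower genes, and 9 were at least 1.5-fold nearer at 6 h than at 3 h. When arrays were first centred on their medians, the same fit gave 277 genes at 3 h and 279 at 6 h (155 higher and 124 lower). In that setting limma estimated infinite prior degrees of freedom, against 4.92 as deposited, so that no spread of a single gene entered the test.

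**Figure D2:**
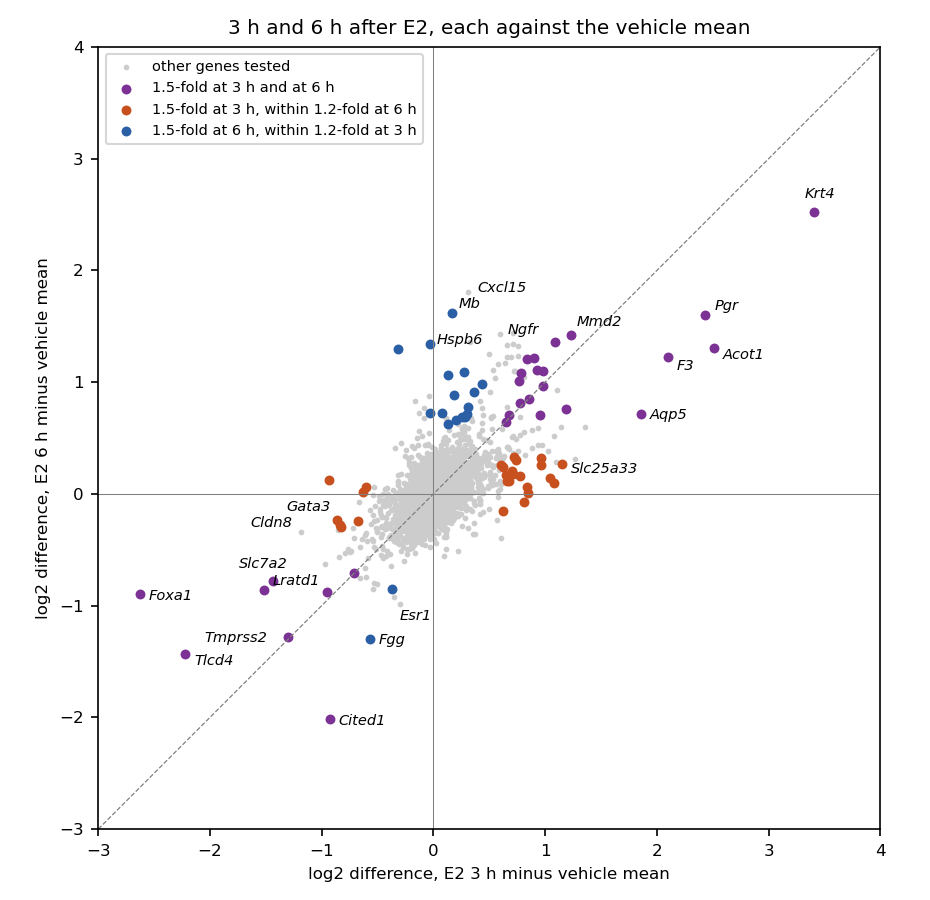
Log2 difference from the vehicle mean at 6 h (vertical axis) against that at 3 h (horizontal axis) for the 10916 genes tested, with the equal-value diagonal dashed and 3 classes of genes coloured. Krt4, Pgr, Acot1, F3 and Foxa1 lie nearer to vehicle at 6 h than at 3 h, and Cited1, Cxcl15, Hspb6 and Mb lie farther from it.

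The other arrays of the time course place these changes in time. Of the 28 genes, 9 were past 1.5-fold in the same direction already at 1 h, 5 were at 12 h, 3 at 18 h and 3 at 24 h. The 3 genes at 18 h and at 24 h were the muscle genes Ckm, Mybpc2 and Myh4, also among the 9 at 1 h. The muscle list averaged log2 differences from vehicle of 0.73 at 1 h, 0.75 at 18 h and 0.85 at 24 h. At 12 h its average was 0.17. Foxa1 was at 726 at 1 h, and it had returned to 1170 at 12 h and 1472 at 18 h. Cited1 was still low at 12 h, at 243, and stood at 567 at 18 h.

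**Figure D3:**
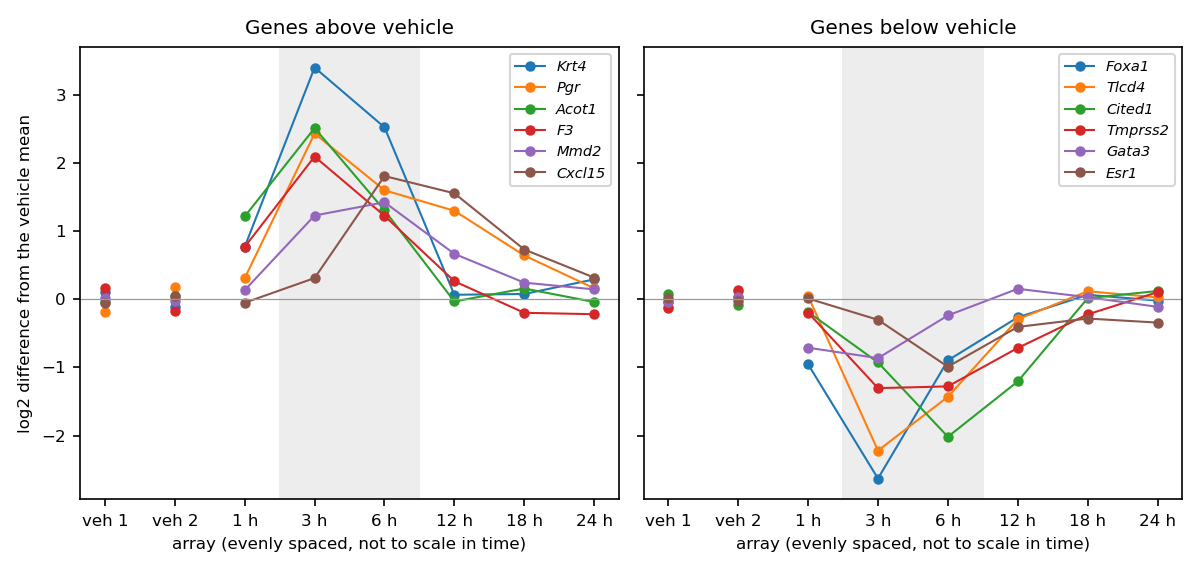
Log2 difference from the vehicle mean on all 8 arrays for 6 genes that lay above vehicle (left) and 6 that lay below it (right), with arrays evenly spaced and 3 h and 6 h shaded. Krt4, Pgr, Acot1 and F3 were highest at 3 h and Cxcl15 at 6 h, while Foxa1 and Tlcd4 were lowest at 3 h and Cited1 and Esr1 at 6 h.

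Of 87 genes past 1.5-fold at 3 h, 28 were also past it at 6 h and 33 lay between 1.2- and 1.5-fold there, in the same direction. The remaining genes form a second set, past 1.5-fold at 3 h and within 1.2-fold of the vehicle range, or back in it, at 6 h. It held 26 genes (0.238%), 19 higher (0.174%) and 7 lower (0.0641%). Signal regulators were among them. Slc25a33, a mitochondrial carrier of pyrimidine nucleotides, led the list with 187 and 195 in vehicle, 424 at 3 h and 229 at 6 h (limma adjusted p = 0.015 at 3 h). Errfi1, an inhibitor of the epidermal growth factor receptor, measured 1011 and 987 in vehicle, 1941 at 3 h and 1194 at 6 h (adjusted p = 0.0133), and 2780 at 1 h. In both genes the 1 h array, at 288 for Slc25a33, was also above vehicle.

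Smim38 measured 330 and 316 in vehicle, 680 at 3 h and 346 at 6 h (adjusted p = 0.012). Cdk18, a cyclin-dependent kinase, measured 216 and 187, then 414 and 222 (adjusted p = 0.034). Shb, an adaptor of tyrosine kinase receptors, measured 407 and 402, then 727 and 408 (adjusted p = 0.0188). The 6 h values of these 3 genes were close to vehicle. Baiap2l1, an adaptor that links membrane and actin, and Dennd2a, an activator of Rab proteins, also rose at 3 h (adjusted p = 0.0378 and 0.0216). Pdk4, which inhibits pyruvate dehydrogenase, measured 766 and 1077 in vehicle, 1771 at 3 h and 1132 at 6 h, and its wide vehicle gap left it short of the threshold (adjusted p = 0.158).

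Gata3, the luminal transcription factor that acts beside Foxa1, led the lower genes, with 299 and 316 in vehicle, 169 at 3 h and 261 at 6 h (adjusted p = 0.034 at 3 h). It was already at 188 at 1 h. Pcdh20, a protocadherin, fell from 535 and 511 to 294 at 3 h and measured 432 at 6 h (adjusted p = 0.0216). Lpar4, a receptor for lysophosphatidic acid, fell from 303 and 334 to 179 and measured 259 (adjusted p = 0.0466). Gata3, Pcdh20 and Lpar4 thus lay below both vehicle arrays at both times, by less at 6 h. Ebf2, a transcription factor of the fat lineage, and Adamts5, a protease of the extracellular matrix, fell at 3 h (adjusted p = 0.0466 and 0.0441), with 6 h values of 446 and 1991 against vehicle pairs of 438 and 443, and of 1916 and 1891. Cxcl5, a neutrophil chemokine, measured 461 and 344 in vehicle, 209 at 3 h and 433 at 6 h. Mtmr7, a phosphoinositide phosphatase, measured 286 and 282, then 178 and 241, on its brightest probe set. Neither passed at 3 h. A dimmer probe set of Mtmr7 fell further, with 213 and 242 in vehicle, 30.6 at 3 h and 159 at 6 h. Its 6 h value lay more than 1.2-fold below the vehicle range, so it would not place Mtmr7 in this set.

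Of these 26 genes, 20 were called at 3 h. The fall or return between 3 h and 6 h compares 1 array with 1 array in the fit with 1 array per time. The rule of the set already picks genes with a gap between these arrays, so a test within the set cannot show a return. At 6 h, 5 of the 26 were not outside the vehicle range in the 3 h direction at all. At 1 h, 5 were already past 1.5-fold in the same direction.

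The promoters of Slc25a33, chr4:149774218-149774517 (minus strand), and of Gata3, chr2:9878551-9878850 (minus strand), the leading genes of the 3 h set in each direction, are shown with the same marks. Slc25a33 held the arms TGACC at -181 and GGTCA at -168 relative to the gene start, and Gata3 held GGTCA at -199.
Slc25a33: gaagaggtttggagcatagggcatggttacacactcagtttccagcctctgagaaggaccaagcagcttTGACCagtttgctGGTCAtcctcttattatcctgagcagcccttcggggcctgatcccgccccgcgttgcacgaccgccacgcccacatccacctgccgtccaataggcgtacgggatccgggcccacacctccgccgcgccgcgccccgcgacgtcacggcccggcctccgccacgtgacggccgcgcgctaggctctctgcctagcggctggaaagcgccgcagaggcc
Gata3: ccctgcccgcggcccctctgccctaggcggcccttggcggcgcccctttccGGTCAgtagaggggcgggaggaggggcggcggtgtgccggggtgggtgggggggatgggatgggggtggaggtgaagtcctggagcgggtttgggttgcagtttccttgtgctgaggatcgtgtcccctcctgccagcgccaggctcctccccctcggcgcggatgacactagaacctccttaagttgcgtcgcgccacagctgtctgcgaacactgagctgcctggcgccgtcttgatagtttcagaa

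Of the 19 promoters matched to the 3 h set, 11 (57.9%) held a single arm, against 37.6% of the genes tested, a difference that was not tested.

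**Figure D4:**
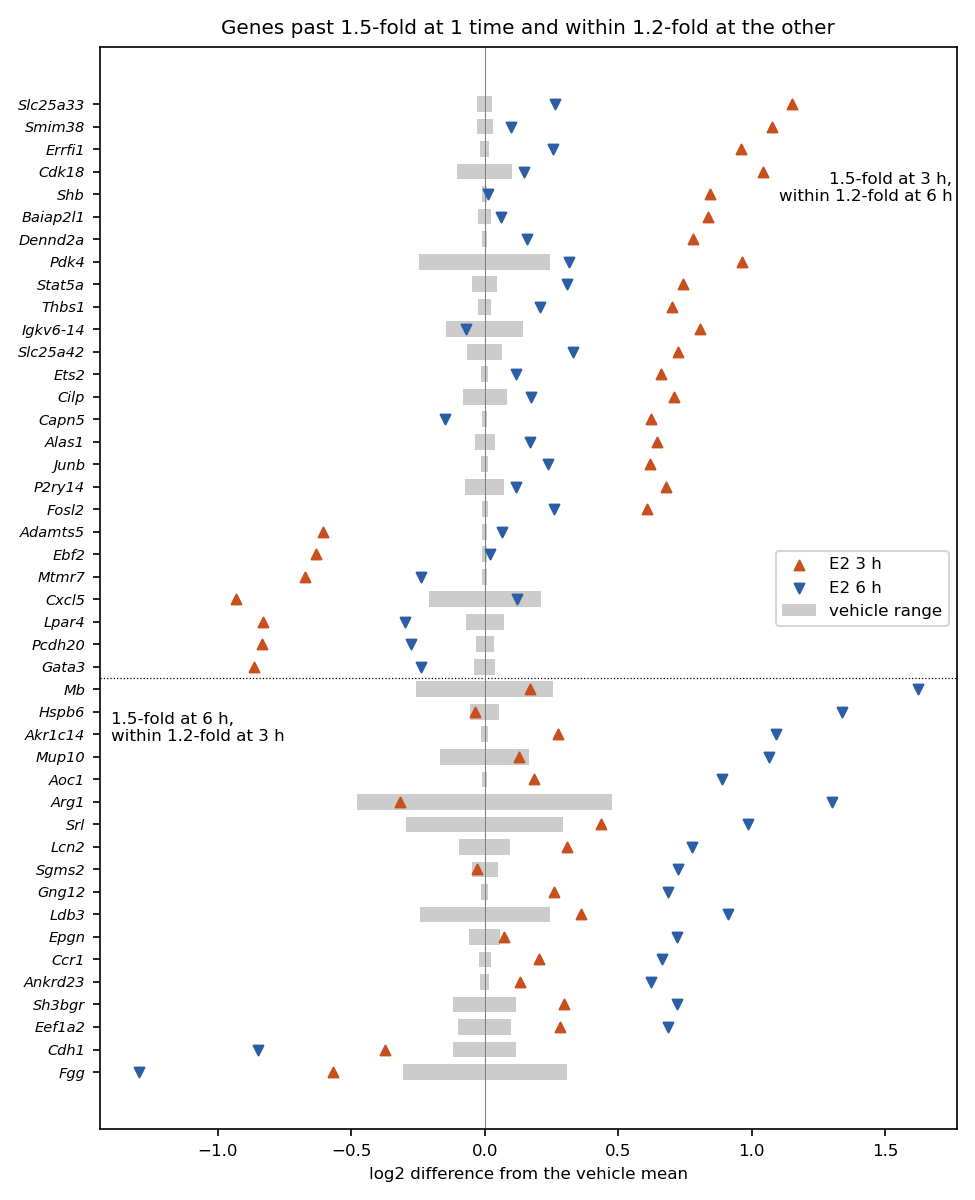
Log2 difference from the vehicle mean at 3 h and at 6 h for the 26 genes past 1.5-fold at 3 h and within 1.2-fold of the vehicle range at 6 h (above the dotted line) and the 18 genes with the reverse pattern (below it), with the range of the vehicle arrays as a grey bar. Among the genes below the line, Arg1, Fgg, Srl, Mb and Ldb3 have wide vehicle ranges.

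Of 81 genes past 1.5-fold at 6 h, 28 were also past it at 3 h and 35 lay between 1.2- and 1.5-fold there, in the same direction. The last set was past 1.5-fold at 6 h and within 1.2-fold of the vehicle range, or inside it, at 3 h. It held 18 genes (0.165%), 16 higher (0.147%) and 2 lower (0.0183%), and 4 of them were called at 6 h. Hspb6, a small heat shock protein abundant in muscle, measured 344 and 319 in vehicle, 323 at 3 h and 837 at 6 h (limma adjusted p = 0.0102). Akr1c14, an oxidoreductase of steroid metabolism, measured 238 and 234, then 285 and 502 (adjusted p = 0.0222). Aoc1, the diamine oxidase that degrades histamine, measured 218 and 215, then 246 and 401 (adjusted p = 0.0408), and it was at 395 at 12 h. The 3 h values of Akr1c14 and Aoc1 were a little above vehicle, that of Hspb6 was between the vehicle values. The remaining called gene was Gng12, a G protein gamma subunit, with 1563 and 1534 in vehicle, 1852 at 3 h and 2491 at 6 h (adjusted p = 0.0444).

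Lcn2, an iron-scavenging lipocalin, measured 905 and 1032 in vehicle, 1198 at 3 h and 1656 at 6 h (adjusted p = 0.0649). Sgms2, a sphingomyelin synthase, measured 225 and 210, then 213 and 358 (adjusted p = 0.0789). Mup10, a major urinary protein, measured 208 and 165, then 203 and 387 (adjusted p = 0.0812). Each was high at 6 h and short of the threshold, and Mup10 is one of a family of near-identical genes, so its probe set may also read its copies. Arg1, arginase, differed between the vehicle arrays themselves, with 475 and 245, and measured 274 at 3 h and 839 at 6 h (adjusted p = 0.368). On the lower side, Fgg, the fibrinogen gamma chain, measured 349 and 535, then 292 and 176, and Cdh1, E-cadherin of epithelial junctions, measured 387 and 457, then 325 and 233 (adjusted p = 0.162 and 0.0774).

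Muscle genes were among the 16 higher genes, which included the 6 genes Mb, Srl, Ldb3, Ankrd23, Sh3bgr and Eef1a2. Mb, myoglobin and the single member of the marker list, measured 196 and 137 in vehicle, 184 at 3 h and 505 at 6 h (adjusted p = 0.0604), and Srl, a calcium-binding protein of the muscle sarcoplasmic reticulum, measured 207 and 138, then 229 and 335 (adjusted p = 0.294). Of the 30 muscle markers, 22 were tested, and 20 of these (90.9%) lay above both vehicle arrays at both times, against 21.2% of all genes. All 22 were higher at 6 h than at 3 h, and 21 were higher in vehicle 1 than in vehicle 2. The mean of the list, relative to the vehicle mean, was 0.17 and -0.17 on the vehicle arrays, 0.57 at 3 h and 1.13 at 6 h on the log2 scale. Neb, a giant protein of the thin filament, and Tcap, a Z-disc protein, were called at 6 h, with 201 and 159 in vehicle, 293 and 484 at 3 h and 6 h for Neb, and with 273 and 258, then 333 and 682 for Tcap. The share of muscle tissue in Hspb6 and the other genes of this set was not tested.

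The promoters of Hspb6, chr7:30552290-30552589 (plus strand), and of Fgg, chr3:83007474-83007773 (plus strand), the leading genes of the 6 h set in each direction after the muscle markers, are shown with the same marks. Fgg held the arm GGTCA at -200 and Hspb6 held no match, and 7 of the 14 promoters matched to the 6 h set held a single arm, against 37.6% of the genes tested.
Hspb6: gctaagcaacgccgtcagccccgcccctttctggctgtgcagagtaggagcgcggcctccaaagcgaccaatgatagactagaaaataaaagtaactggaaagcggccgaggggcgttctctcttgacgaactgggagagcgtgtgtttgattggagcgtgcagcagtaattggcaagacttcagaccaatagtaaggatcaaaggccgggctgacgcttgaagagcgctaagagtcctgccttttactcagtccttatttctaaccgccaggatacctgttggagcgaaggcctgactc
Fgg: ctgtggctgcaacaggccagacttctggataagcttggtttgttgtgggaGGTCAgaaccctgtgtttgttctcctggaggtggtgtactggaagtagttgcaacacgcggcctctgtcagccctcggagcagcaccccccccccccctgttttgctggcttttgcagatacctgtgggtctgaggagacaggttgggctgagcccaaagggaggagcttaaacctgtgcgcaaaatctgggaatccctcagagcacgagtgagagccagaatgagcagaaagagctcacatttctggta

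The difference between 6 h and 3 h was tested for all genes in the same fit. It compares 1 array with 1 array, and its error comes from the vehicle pair and the trend over genes, since the spread at either time was not measured. Under that assumption 3 genes (0.0275%) passed, while 544 (4.98%) had an unadjusted p below 0.05. The 6 h value of Foxa1 exceeded the 3 h value by 1.73 ± 0.09 on the log2 scale (limma adjusted p = 0.0208). That of Hspb6 was higher by 1.37 ± 0.10 (adjusted p = 0.0464). Cxcl15, a chemokine of epithelia, was higher at 6 h by 1.497 ± 0.10 (adjusted p = 0.0329), with 318 and 339 in vehicle, 408 at 3 h, 1152 at 6 h and 966 at 12 h. Its difference of 3 h and 6 h together from vehicle was 1.06, and -0.41 with the muscle covariate. The covariate fit holds 3 h and 6 h as 1 group, so it cannot tell muscle content from a change between these times. Cxcl15 lay just beyond 1.2-fold at 3 h and so was in none of the 3 sets. With median centring, 138 genes passed, 69 higher and 69 lower at 6 h, again with infinite prior degrees of freedom.

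Esr1 itself measured 1551 and 1505 in vehicle, 1240 at 3 h and 770 at 6 h, a fall that passed at 6 h (limma adjusted p = 0.0199) and not at 3 h (0.337). Its log2 difference of 3 h and 6 h together from vehicle was -0.64. It was 0.079 when the mean of the muscle markers entered a fit of all 8 arrays. That fit holds 3 h and 6 h as 1 group, so it cannot tell muscle content from a change between these times. The list of 20 receptor and coregulator genes tested holds Esr1, Foxa1, Cited1 and Gata3, and it was chosen with earlier results of these data known. By any amount, 8 of the 20 (40%) lay below both vehicle arrays at both times, against 15.3% of all genes, and 2 (10%) lay above, against 21.2%. Of 20 estrogen target genes, 1 was called higher by the test of 2 against 2 (Pgr), and 3 lay above and 3 below both vehicle arrays at both times (15% each way), near the 21.2% and 15.3% of all genes. The median log2 difference of the target genes was -0.02 at 3 h and -0.02 at 6 h, and that of all genes tested was 0.01 at both times. Myc, a growth regulator, measured 244 and 250 in vehicle, 324 at 3 h and 285 at 6 h (adjusted p = 0.353). Ccnd1, cyclin D1, measured 1081 and 1266, then 1192 and 1223 (adjusted p = 0.965). Greb1, Wnt4 and Tnfsf11 lay below the level limit on average and were not tested. The probe sets of Greb1, a cofactor of the estrogen receptor, disagreed. The brightest measured 139 and 124 in vehicle, 147 at 3 h and 145 at 6 h, while another, dimmer one measured 41.0 and 39.6, then 110.4 and 109.6. A further dim probe set of Greb1 was at 36.9 and 34.0 in vehicle, 59.1 at 3 h and 40.2 at 6 h, and the last was within its vehicle pair at both times.

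Of 23 genes tested in the luminal epithelial list, Krt4 and Pgr were called higher and Tmprss2 lower with 2 arrays against 2. Below both vehicle arrays at both times lay 9 (39.1%), against 15.3% of all genes. The 5 that lay above (21.7%) were at the share of all genes, 21.2%. The list was chosen with earlier results of these data known. It holds Krt4, Pgr, Foxa1 and Cited1, so its counts partly restate the genes named above. At 6 h, Wfdc2, a secreted whey acidic protein family member, also fell, with 945 and 1059 in vehicle, 703 at 3 h and 570 at 6 h (adjusted p = 0.0491). Krt8, a keratin of luminal cells, measured 1149 and 1120 in vehicle, 779 at 3 h and 1124 at 6 h, and did not pass (adjusted p = 0.0718 at 3 h). Epcam, by contrast, measured 1747 and 1615, then 1787 and 1656. The summed intensity of 24 luminal markers was 17251 and 18188 in vehicle, 17111 at 3 h and 15383 at 6 h. Of 17 adhesion genes tested, Cldn8, a claudin of tight junctions, fell at 3 h, with 274 and 256 in vehicle, 117 at 3 h and 209 at 6 h (adjusted p = 0.0188).

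Immediate early genes, which respond to a stimulus without new protein synthesis, leaned to the higher side. Of 30 tested, 18 lay above both vehicle arrays at 3 h and at 6 h and 2 lay below, where 21.2% of all genes lay above. Their median log2 difference was 0.16 at 3 h and 0.11 at 6 h. Egr1, a zinc finger transcription factor, passed with 2 arrays against 2, with 1684 and 1717 in vehicle, 2765 at 3 h and 2421 at 6 h (limma adjusted p = 0.0494). Ccn1, a matricellular protein, stood above vehicle (444 and 489 in vehicle, 1192 at 3 h and 707 at 6 h). So did the AP-1 subunits Junb (485 and 477, then 738 and 566) and Fosl2 (695 and 684, then 1050 and 826). The list was chosen with earlier results of these data known. At 6 h, 0 of the 30 were called by limma, with 8 at an unadjusted p below 0.05. Fos, another AP-1 subunit, measured 1984 and 2283 in vehicle, 3365 at 3 h and 2853 at 6 h (adjusted p = 0.147).

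Of 23 genes of cytokine receptors and STAT and SOCS proteins, 13 (56.5%) lay above both vehicle arrays at both times and 1 below, against 21.2% and 15.3% of all genes. Il4ra, a receptor chain for interleukin 4, passed with 2 against 2 (855 and 912 in vehicle, 1275 at 3 h and 1427 at 6 h, limma adjusted p = 0.0494). Il17ra, a receptor for interleukin 17, and Stat5a, the transcription factor of prolactin signalling, rose at 3 h (adjusted p = 0.0216 and 0.0309), with Il17ra at 662 and 762, then 1497 and 1018, and Stat5a at 1071 and 1004, then 1734 and 1283. Of 17 genes of growth factor receptor feedback, 6 (35.3%) lay above and 3 (17.6%) below both vehicle arrays at both times. Errfi1 was 1.94-fold above the vehicle mean at 3 h. Of 18 angiogenic and hypoxia genes, 8 (44.4%) lay above and 4 (22.2%) below both vehicle arrays at both times. F3, Adamts1 and Thbs1 were 4.27-, 2.21- and 1.63-fold above the vehicle mean at 3 h. Adamts1, a matrix protease, measured 790 and 730, then 1678 and 1147.

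Lipid synthesis genes leaned to the lower side, and they also differed between the vehicle arrays. Of 25 fatty acid and triglyceride synthesis genes, 15 lay below both vehicle arrays at 3 h and at 6 h and 0 lay above, where 15.3% of all genes lay below. The median was -0.21 at 3 h and -0.19 at 6 h on the log2 scale, beside a median gap of 0.25 between vehicle 1 and vehicle 2. Of 19 cholesterol synthesis genes, 9 (47.4%) lay below and 1 above, with medians of -0.20 and -0.10 and a vehicle gap of 0.17. With 2 arrays against 2, 0 genes of either list passed in limma, with 9 and 6 at an unadjusted p below 0.05. Without vehicle 1, the higher of the vehicle pair in these lists, the medians of 3 h and 6 h were -0.12 and -0.05, against -0.17 and -0.15 with both. Elovl6, a fatty acid elongase, shows the gap, with 5951 and 4416 in vehicle, 3352 at 3 h and 3982 at 6 h. Lep, the fat cell hormone leptin, fell at 3 h (884 and 897 in vehicle, 532 at 3 h and 619 at 6 h, adjusted p = 0.0225), while the summed intensity of 14 fat cell markers was 86886 and 92138 in vehicle, 87061 at 3 h and 88967 at 6 h.

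**Figure D5:**
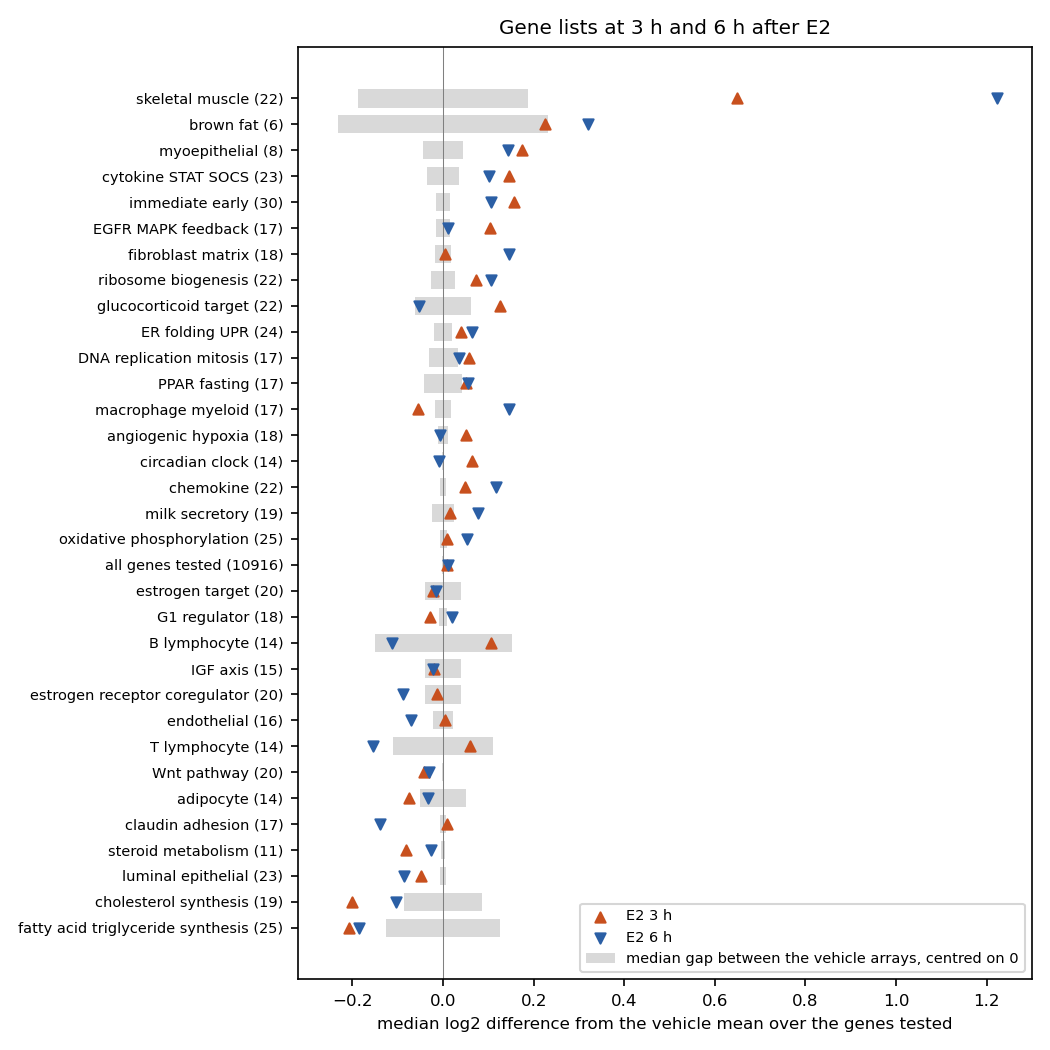
Median log2 difference from the vehicle mean at 3 h and at 6 h over the tested genes of each list (number in brackets), with the median gap between the vehicle arrays as a grey bar centred on 0. Skeletal muscle markers stand apart at 0.65 and 1.22, fatty acid synthesis lies lowest, and most lists lie within 0.2 of 0.

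Of 17 DNA replication and mitosis genes and 18 regulators of the G1 phase, 0 were called by limma with 2 against 2, with 0 and 2 at an unadjusted p below 0.05, and the medians lay between -0.03 and 0.06 on the log2 scale. Both vehicle arrays were exceeded at both times by 7 of the replication genes (41.2%, with 1 below) and by 3 of the G1 regulators (16.7%, with 3 below), against 21.2% of all genes above and 15.3% below. Of 22 ribosome biogenesis genes, 11 (50%) lay above and 0 below, with medians of 0.07 and 0.11, 0 calls by limma and 5 genes at an unadjusted p below 0.05. Myoepithelial markers were above both vehicle arrays at both times in 5 of 8 genes (62.5%, against 21.2% of all genes) and below in 0, with medians of 0.17 and 0.14, 0 calls by limma and 4 genes at an unadjusted p below 0.05. B and T lymphocyte markers differed between the vehicle arrays by medians of -0.30 and -0.22, and 0 of 14 genes of either list lay outside the vehicle range on the same side at both times.

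The other lists gave few calls, and their counts stand beside 21.2% of all genes above and 15.3% below both vehicle arrays at both times. Of 18 fibroblast and matrix genes, 6 (33.3%) lay above and 0 below, and 1 was called (Plod2), with medians of 0.00 at 3 h and 0.15 at 6 h. Of 17 fasting and PPAR genes, which handle fatty acid use, 8 (47.1%) lay above and 2 below, and 1 was called with 2 against 2, Ppp1r3c, a glycogen-targeting subunit of protein phosphatase 1 (1109 and 1045 in vehicle, 1549 at 3 h and 1614 at 6 h, limma adjusted p = 0.0388). Of 22 glucocorticoid targets, 9 (40.9%) lay above and 2 below, with medians of 0.13 at 3 h and -0.05 at 6 h, and Errfi1 was called at 3 h. Of the 22 chemokine genes in the list, 8 (36.4%) lay above and 2 below, and Cxcl15 was 3.51-fold above the vehicle mean at 6 h. Ccl12, a chemokine outside that list, passed with 2 against 2 (limma adjusted p = 0.00713). Macrophage markers had medians of -0.06 and 0.15 and endothelial markers of 0.00 and -0.07, and 3 of 17 (17.6%) and 2 of 16 genes (12.5%) lay above. Genes of the circadian clock, of which 4 of 14 (28.6%) lay above and 3 (21.4%) below, had medians of 0.06 and -0.01.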

How the data were processed

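The authors deposited normalized intensity values, on a linear scale, for 45101 probe sets on each array. Per the submitters' processing notes, GCOS 1.0 and RMA were used, with no order given. Array medians lay between 173.9 and 180.49, so the arrays were not scaled again before log2. Of the probe sets, 34945 carried 1 gene symbol, 932 several (no gene was named from these) and 9160 none. For each of 18193 genes the probe set of highest average level on the 8 arrays was kept, and the 10916 genes at or above the 40th percentile were tested.

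The tests are those of limma 3.58.1 (R 4.3.3) with the trend option of empirical Bayes. The 2 E2 arrays were compared with the 2 vehicle arrays (2 residual degrees of freedom). Single times, and 6 h against 3 h, were compared in a fit with 3 groups (1 residual degree of freedom). P-values are two-sided. Genes were called at an adjusted p (Benjamini-Hochberg, 10916 genes) below 0.05. An exact permutation test of 2 arrays against 2 cannot give a p below 0.333. The models were tested on simulated data.

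Gene classes are counts of genes at least 1.5-fold outside the vehicle range. The members, the 32 gene lists and the rules were chosen with earlier results of these data known. Named genes are the 12 farthest outside that range on both arrays in each direction, the 8 farthest in each direction at 1 time (muscle markers passed over), up to 4 members of each list with the largest difference, and a set of estrogen response genes. Padi2, Fbxw17, Ptpn5, Myh4, Mybpc2, Mb, Ldb3, Ankrd23, Sh3bgr, Eef1a2, Gng12, Wfdc2, Junb, Fosl2, Tcap, Car8, Krt8, Epcam and Adipoq were named after their values were seen, to complete a count or to describe the tissue. Alternatives were other level filters, scalings, probe set rules and fold limits, no trend, all 8 arrays in 5 groups, a muscle covariate and leaving out each array. Promoter sequences are those of RefSeq. Areg and Prlr were not analysed here.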

Additional observations from a re-analysis of the deposited data

Results flagged for a closer look

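For 3 genes the 6 h and 3 h values lay farther apart than the limma test of the difference allows when each single E2 array is assumed to vary as the vehicle arrays do, beside 4.98% of all genes at an unadjusted p below 0.05. The log2 difference of 6 h from 3 h was 1.73 for Foxa1 (adjusted p = 0.0208), 1.497 for Cxcl15 (0.0329) and 1.37 for Hspb6 (0.0464). Each compares 1 array with 1 array, so the spread at either time was not measured and a difference between the times themselves is not shown. Foxa1 passed in each of the other settings run, while Cxcl15 was at an adjusted p of 0.0623 with the higher level filter and 0.0515 without the trend, and Hspb6 was at 0.0626 without the trend and was not tested under the higher filter.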

How the results depend on the processing

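No paired analysis was possible because the E2 arrays carry no replicate numbers that match those of the vehicle arrays. The fits of single times could not be run without a vehicle array, since no residual degrees of freedom remain. The cause of the shifts below was not tested, apart from the smaller number of genes or arrays that a setting leaves and the infinite prior degrees of freedom after centring.

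The 27 genes called with 2 arrays against 2 became 46 with median centring (30 higher, 16 lower), 7 with a filter at the 60th percentile, 16 with probe set means, 14 without a trend, 11 with quantile normalization, 63 with all 8 arrays in 5 groups and 123 with the muscle covariate added (14 of the 27 shared). Leaving out 1 array gave between 0 and 64 calls. At 3 h, 65 became 277 with centring, 30 with the 60th percentile filter and 121 without a filter. At 6 h, 38 became 279, 1 and 115, and 62 with probe set means. For 6 h against 3 h, 3 became 138 with centring (69 higher, 69 lower), 1 with the 60th percentile filter, 12 with probe set means, 9 without a filter and 1 without a trend. With the muscle covariate, the log2 difference of 3 h and 6 h from vehicle changed sign to -0.41 for Cxcl15, 0.079 for Esr1, -0.42 for Tcap and 0.074 for Adipoq, none of them called in the 2 against 2 test. The covariate fit holds 3 h and 6 h as 1 group, so it cannot tell muscle content from a change between these times. With probe set means the log2 difference changed sign to -0.0084 for Ccnd1 and -0.17 for Epcam. Leaving out 1 array, it ranged from -0.10 to 0.036 for Adipoq, from -0.069 to 0.16 for Ccnd1 and from -0.023 to 0.090 for Epcam.

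The 28 genes outside the vehicle range on both arrays became 8 at 2-fold and 17 with the 60th percentile filter, and between 42 and 65 without 1 vehicle array. The 26 genes of the 3 h set became 2 at 2-fold, 15 with the 60th percentile filter and 5 when the 6 h value had to lie inside or beyond the other side of the range, and between 30 and 32 without 1 vehicle array. The 18 genes of the 6 h set became 3 at 2-fold, 3 with the 60th percentile filter, 36 without a filter and 5 under the stricter rule for the other time, and between 18 and 25 without 1 vehicle array.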
